A study of Mus musculus with 8 samples.

Results

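The 10 genes described here are parts of the circadian clock and of its direct output, taken by symbol from a table of 53465 genes measured in mouse colon. They fall into 2 sets by the time of day at which their RNA is known to peak in peripheral tissues. The Per phase holds Per1, Per2, Per3, Nr1d1, Nr1d2, Dbp and Ciart, and the Bmal1 phase holds Arntl (also called Bmal1), Npas2 and Nfil3. All 10 were found in the table and all 10 passed the filter on low values, as did 16380 genes in all. The members were chosen with their levels in these libraries in view, so their levels, differences and correlations are given as descriptions.

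The clock is a feedback loop that runs in nearly every cell. Clock or Npas2 pairs with Bmal1 to switch on genes through E-box sequences, and the products of the Per and Cry genes return to the nucleus and silence that pair. The Rev-erb proteins (Nr1d1, Nr1d2) repress Arntl through ROR elements, so Arntl and the Rev-erb genes peak at opposite times of day. Dbp and Nfil3 act in opposite directions on D-box sequences of output genes. In the gut the clock is known for daily rhythms of cell division, nutrient uptake and immune defence.

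There were 4 libraries from mice with a conditional, cell-specific deletion of Arg1, which encodes arginase 1 (labelled Arg1 ko), and 4 from littermates that expressed it (labelled Arg1 wt, here wild type). The mice were on the B6 background, had the same age and sex in both genotypes, and were 7 to 12 weeks old. In both genotypes colitis was induced with DSS (dextran sulfate sodium, a polysaccharide toxic to the gut lining) at 2.5% in drinking water for a week, with normal water after that until day 10. The sources used here name neither the driver of the deletion, nor the cell type it affects, nor the time of day at which tissue was taken. The RNA came from epithelial aggregates released with 30 mM EDTA, while the tissue is labelled colon.

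Values are the authors' regularised log2 values (rlog), on which 1 unit is a doubling and differences of weakly expressed genes are drawn toward 0. They are not scaled by gene length, so levels are compared between libraries and never between genes. Nothing in the table gives the depth of a library. Arg1 itself had 5.06, 4.87, 5.15 and 5.19 in Arg1 ko 1 to 4, against 5.59, 5.57, 5.02 and 5.58 in wild type 1 to 4. The value of the library labelled wild type 3 lies inside the Arg1 ko range, unlike the other wild-type values. Since the cell type of the deletion is not named, this value alone cannot tell whether the label is right. The markers of epithelium that were listed, among them Epcam, Cdh1, Vil1 and Muc2, all had a mean of at least 12.8. The listed markers of fibroblasts, smooth muscle, endothelium, leukocytes, nerve cells and red blood cells all passed the filter on low values. Their lowest mean was 6.21, that of a leukocyte marker. Myh11, a myosin of smooth muscle, was present in every library, at 14.85 to 15.07 in Arg1 ko and 13.83 to 15.41 in wild type. The sample numbers form 1 run in each genotype, so any batch that followed them cannot be told apart from genotype.

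Clock genes carry short control sequences close to their start sites, and 5 windows are shown because they hold the sequences through which the phases are known to be set. The windows are RefSeq promoters on GRCm38.p6, from 250 bases before to 50 bases after an annotated start, printed 5′ to 3′ on the strand of the gene. Capitals mark an E-box (CACGTG, read by Clock with Bmal1), a D-box (TTANGTAA, read by Dbp, Tef, Hlf and Nfil3) or a ROR element (TAGGTCA, read by the ROR and Rev-erb proteins). Both strands were searched, and no matches overlap.
Ciart, chr3:95882179-95882478, minus strand: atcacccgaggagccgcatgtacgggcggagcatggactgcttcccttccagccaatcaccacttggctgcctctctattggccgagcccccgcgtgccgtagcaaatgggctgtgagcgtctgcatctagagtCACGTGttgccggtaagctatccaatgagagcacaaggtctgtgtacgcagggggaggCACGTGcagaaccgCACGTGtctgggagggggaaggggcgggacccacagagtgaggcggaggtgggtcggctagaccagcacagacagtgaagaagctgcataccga
Per1, chr11:69098699-69098998, plus strand: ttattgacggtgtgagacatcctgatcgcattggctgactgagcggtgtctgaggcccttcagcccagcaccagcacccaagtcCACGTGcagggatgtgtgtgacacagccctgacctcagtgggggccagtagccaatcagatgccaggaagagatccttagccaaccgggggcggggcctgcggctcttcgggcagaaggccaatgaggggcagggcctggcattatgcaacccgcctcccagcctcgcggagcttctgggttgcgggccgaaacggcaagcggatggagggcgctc
Per3, chr4:151044616-151044915, minus strand: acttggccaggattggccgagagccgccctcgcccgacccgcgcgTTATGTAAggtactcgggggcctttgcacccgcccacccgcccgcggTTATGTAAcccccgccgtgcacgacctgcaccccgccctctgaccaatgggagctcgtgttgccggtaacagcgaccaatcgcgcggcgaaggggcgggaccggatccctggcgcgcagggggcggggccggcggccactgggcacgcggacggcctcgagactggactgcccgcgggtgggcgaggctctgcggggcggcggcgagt
Arntl, chr7:113207261-113207560, plus strand: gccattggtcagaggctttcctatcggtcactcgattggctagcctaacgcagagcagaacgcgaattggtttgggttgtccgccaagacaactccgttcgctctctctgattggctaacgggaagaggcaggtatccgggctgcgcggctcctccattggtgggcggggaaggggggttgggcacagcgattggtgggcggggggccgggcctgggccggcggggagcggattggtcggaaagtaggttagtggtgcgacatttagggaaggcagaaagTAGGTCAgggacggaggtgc
Nfil3, chr13:52980990-52981289, minus strand: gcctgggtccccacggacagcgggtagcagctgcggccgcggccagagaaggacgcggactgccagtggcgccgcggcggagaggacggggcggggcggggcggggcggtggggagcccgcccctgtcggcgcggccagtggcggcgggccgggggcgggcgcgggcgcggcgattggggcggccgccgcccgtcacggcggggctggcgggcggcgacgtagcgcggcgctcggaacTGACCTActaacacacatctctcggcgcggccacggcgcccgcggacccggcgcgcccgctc

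Ciart, whose product (Chrono) represses the Clock and Bmal1 pair, had 3 E-boxes, which lie at -116, -58 and -44 from the start. Of 32851 windows of this length 7.15% held at least 1 E-box and 0.0883% held at least 3. Of the 2 annotated starts of Per1 the window printed had 1 E-box and the other held none of the motifs, and the Per3 window had 2 D-boxes, where 0.0822% of all windows had at least 2. Of the 2 annotated starts of Arntl the one printed had 1 ROR element, and Nfil3 had 1 on the opposite strand, printed as TGACCTA, where 2.61% of windows had at least 1. The windows of Npas2, Dbp, Nr1d1 and Nr1d2 held none of these letters, which says nothing of sites further away. A window was found for 9 of the 10 members, all but Per2. A match of letters describes the sequence and is not a measured binding site.

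The main pattern in the clock genes was a single library. Wild type 4 had the highest value of all 8 libraries in 8 of 10 members, namely the 7 Per-phase genes and Nfil3, and the lowest value in the remaining 2, Arntl and Npas2. Over all tested genes, wild type 4 was the highest library in 24.7% and the lowest in 24.3%. In 5 members it stood more than 1 unit above every other library, where 48 of 16380 genes (0.293%) did so.

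**Figure D1:**
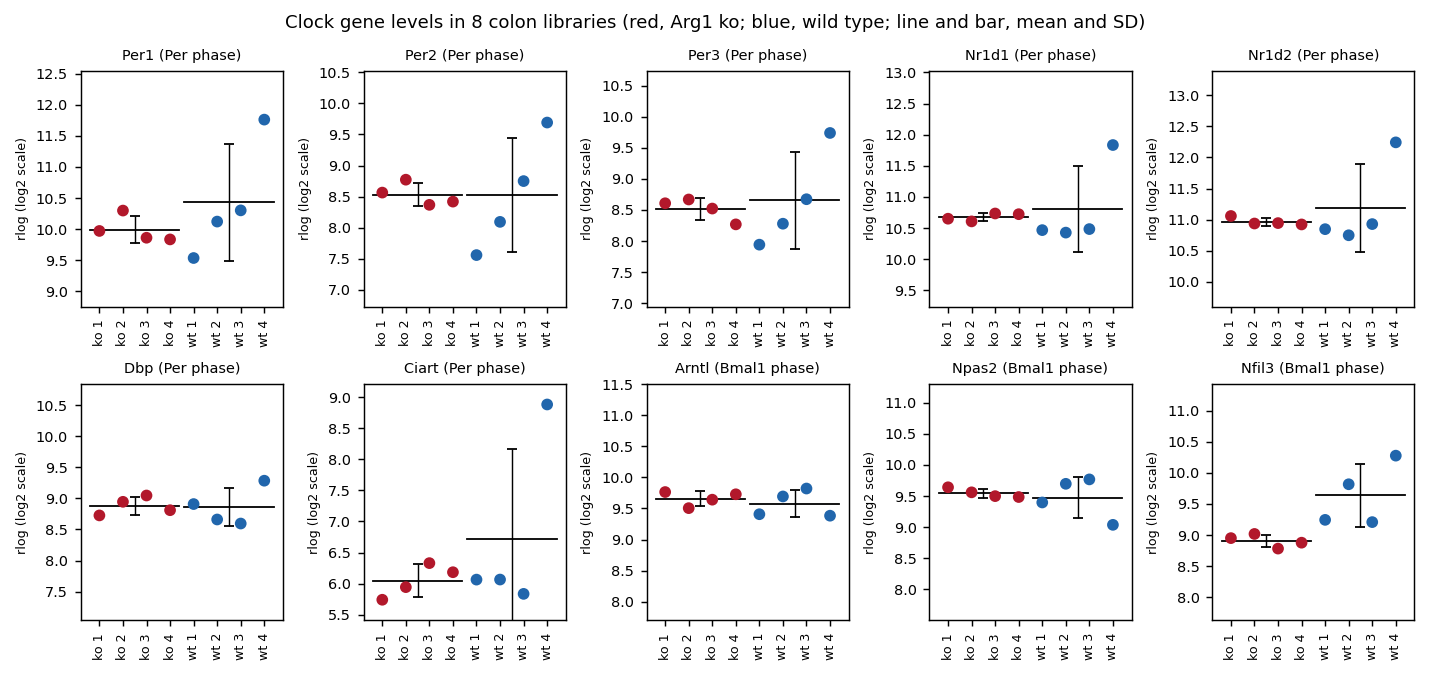
Levels of the 10 clock genes in each library (rlog, log2 scale; every panel spans the same number of units), with Arg1 ko in red on the left and wild type in blue on the right; lines and bars are the mean and SD of 4 libraries. Wild type 4 is the top point in the Per-phase panels and in Nfil3 and the bottom point in Arntl and Npas2, and Nfil3 is the one panel in which the genotypes do not overlap.

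The Period genes encode the repressors that close the loop. Per1, which stress hormones and light can also induce, had 9.97, 10.30, 9.86 and 9.84 in Arg1 ko 1 to 4, against 9.54, 10.12, 10.30 and 11.76 in wild type 1 to 4. Per2 had 8.57, 8.77, 8.37 and 8.42 in Arg1 ko, against 7.56, 8.09, 8.75 and 9.69 in wild type. Both genes were lowest in wild type 1 and highest in wild type 4, and the Arg1 ko values lay between these. Per3, which is dispensable for rhythm but follows the others, had 8.61, 8.67, 8.52 and 8.27 in Arg1 ko, against 7.94, 8.28, 8.67 and 9.74 in wild type. The same order held for Per3, with wild type 1 lowest and wild type 4 highest. Wild type 4 exceeded the next highest library by 1.46 in Per1, 0.92 in Per2 and 1.07 in Per3, that is 2.75-fold, 1.89-fold and 2.09-fold on the rlog scale.

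The Rev-erb genes encode the nuclear receptors that repress Arntl. Nr1d1 had 10.65, 10.61, 10.73 and 10.72 in Arg1 ko, against 10.47, 10.43, 10.48 and 11.83 in wild type. Nr1d2 had 11.06, 10.94, 10.94 and 10.92 in Arg1 ko, against 10.85, 10.75, 10.93 and 12.24 in wild type. Apart from wild type 4, the remaining 7 libraries spanned only 0.31 units in each gene, so wild type 4 stood 1.10 and 1.18 above the next library in Nr1d1 and Nr1d2. Unlike the Period genes, the Rev-erb genes were not lowest in wild type 1 but in wild type 2. The wild-type values other than wild type 4 lay below all 4 Arg1 ko values of Nr1d1.

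Ciart and Dbp are outputs that the Clock and Bmal1 pair switches on directly. Ciart had 5.74, 5.94, 6.33 and 6.18 in Arg1 ko, against 6.06, 6.07, 5.84 and 8.88 in wild type. Wild type 4 exceeded the next library by 2.55, a 5.86-fold difference on the rlog scale. Dbp, a transcription factor that drives D-box genes, had 8.73, 8.94, 9.05 and 8.81 in Arg1 ko, against 8.91, 8.66, 8.60 and 9.28 in wild type. Dbp showed the smallest step of the Per phase, with wild type 4 only 0.24 above Arg1 ko 3.

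The activators of the Bmal1 phase were lowest in wild type 4, by small steps. Arntl, the partner of Clock, had 9.76, 9.50, 9.64 and 9.73 in Arg1 ko, against 9.41, 9.69, 9.82 and 9.38 in wild type. Npas2, which can stand in for Clock, had 9.64, 9.56, 9.50 and 9.48 in Arg1 ko, against 9.40, 9.70, 9.77 and 9.04 in wild type. In both genes the library labelled wild type 3 was highest, wild type 4 lowest and wild type 1 next to lowest. For Arntl the step from wild type 1 to wild type 4 was 0.024 units, far inside the spread of 0.41 among the other 7 libraries, and for Npas2 it was 0.36 against a spread of 0.37.

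Nfil3 did not follow the other Bmal1-phase genes. Nfil3, a repressor of D-box genes that is also known in lymphoid cell development, had 8.95, 9.02, 8.78 and 8.88 in Arg1 ko, against 9.24, 9.82, 9.21 and 10.28 in wild type. All 4 Arg1 ko values lay below all 4 wild-type values, with a gap of 0.19 between Arg1 ko 2 and the library labelled wild type 3. Nfil3 was the only member with no overlap, and 1.67% of the tested genes (274 of 16380) lay entirely below wild type in the same way, while 2.36% lay entirely above, as no member did. Its mean was 8.91 ± 0.10 in Arg1 ko and 9.64 ± 0.51 in wild type (SD, n = 4 each). The difference was -0.73, and its standard error 0.22. The difference was -0.52 without wild type 4. Leaving out that library, which had the highest value, could not make the genotypes overlap.

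The comparison by genotype asked whether loss of Arg1 went with another level of the clock genes. With limma over all genes, 0 of 10 members passed an adjusted p of 0.05, and 0 of 16380 genes did (0% called). At an unadjusted p under 0.05 there was 1 member, Nfil3, and 1490 genes in all. The median difference of the members, as Arg1 ko minus wild type, was -0.13, beside 0.0064 over all tested genes. In the Per phase Arg1 ko was higher in 2 genes and lower in 5, from -0.66 in Ciart to 0.020 in Dbp. Without wild type 4 all 7 were higher in Arg1 ko, from 0.0051 in Per1 to 0.40 in Per2, and 0 of 16380 genes passed (0% called). The direction of the Per phase between genotypes therefore rests on that library.

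Per1 averaged 9.99 ± 0.21 in Arg1 ko and 10.43 ± 0.95 in wild type (SD, n = 4 each), so that Arg1 ko was lower by a log2 difference of -0.44 (SE 0.38). Ciart averaged 6.05 ± 0.26 in Arg1 ko and 6.71 ± 1.45 in wild type (SD, n = 4 each), and its difference of -0.66 had a standard error of 0.58. Both differences were well within the spread of the wild-type libraries. Arntl differed by 0.083 and Npas2 by 0.071, the second of which was -0.075 without wild type 4. Without the library labelled wild type 3, 1005 genes passed (6.14% called), and Nfil3 was the 1 member among them, at a difference of -0.87 and an adjusted p of 0.0488 by limma, where the other alternatives gave 0.442 to 0.819. That library has the lowest Nfil3 of the wild type, so leaving it out enlarges the difference by construction. Leaving out wild type 1 enlarged it as well, to -0.86, at an adjusted p of 0.599 by limma. Why more genes passed without the library labelled wild type 3 was not tested.

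The members also varied more among wild-type libraries than among Arg1 ko libraries. The SD over 4 libraries was larger in wild type for all 10 members, and the same held for 90.9% of all tested genes. The Nr1d1 SD was 0.060 in Arg1 ko and 0.69 in wild type, where the median tested gene had 0.0960 in Arg1 ko and 0.258 in wild type. Within Arg1 ko, 7 of 10 members exceeded that median, led by Ciart at 0.26 and Per1 at 0.21.

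**Figure D2:**
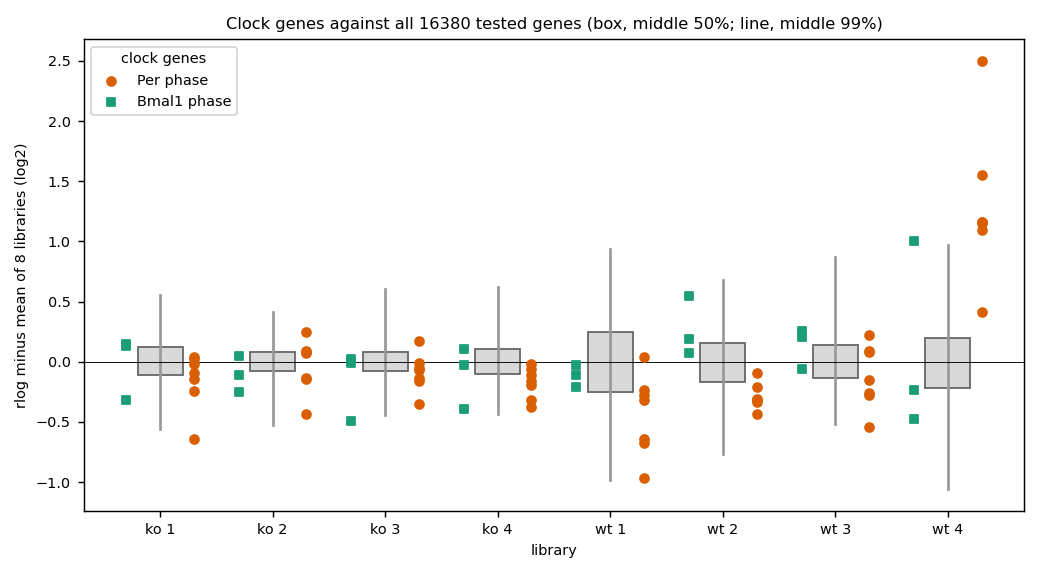
Deviation of each clock gene from its own mean over 8 libraries (log2 units), by library, with Per-phase genes as orange circles and Bmal1-phase genes as green squares; boxes hold the middle 50% and grey lines the middle 99% of the 16380 tested genes. In wild type 4, 6 Per-phase genes and Nfil3 lie above the grey line, with Ciart at 2.50 and Per1 at 1.55.

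To place the clock genes among all others, the deviation of every gene from its own mean was ranked within each library. In wild type 4 Ciart ranked 1 of 16380, with a deviation of 2.50, and Per1 ranked 10, with 1.55. Per2, Nr1d2, Per3 and Nr1d1 ranked 44, 45, 48 and 55, with deviations of 1.16, 1.16, 1.15 and 1.09. Nfil3 ranked 71, with 1.00, while Dbp ranked 1437, with 0.41. Thus 7 of 10 members were in the top 1% of genes in that library, and in none of the other 7 libraries was any member in the top 1%. The mean of each gene includes wild type 4, so a high value there lowers the deviations of the other libraries. In each of Arg1 ko 1 to 4, wild type 1 and the library labelled wild type 3, 1 member was in the bottom 1%. In wild type 4 Arntl at -0.23 and Npas2 at -0.47 were not in the bottom 1%. Beyond the clock, 1.09% of genes deviated by more than 1 unit in wild type 4, against 0.0916% to 0.195% in Arg1 ko and 0.324% to 0.830% in the other wild-type libraries. The SD of the deviations over all genes was 0.344 in wild type 4 and larger, 0.372, in wild type 1.

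The opposite phases were then set against each other, since their relation is what a clock fixes. For each library the deviations were averaged over the 7 Per-phase genes and over the 3 Bmal1-phase genes. The Per-phase mean was -0.15, -0.032, -0.084 and -0.18 in Arg1 ko 1 to 4, against -0.44, -0.29, -0.12 and 1.29 in wild type 1 to 4. The Bmal1-phase mean was -0.015, -0.11, -0.16 and -0.10 in Arg1 ko, against -0.12, 0.27, 0.13 and 0.099 in wild type. Wild type 4 is alone on the Per-phase axis, and the other 7 libraries lie within 0.41 units of each other.

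Over the 8 libraries Pearson's r between the means was 0.22 and Spearman's rho -0.048. Without wild type 4 they were -0.17 and -0.25, and without both wild type 1 and wild type 4, the libraries farthest from the median of the Per-phase mean, they were -0.73 and -0.71 over 6 libraries. No p is given, because the members were chosen on these values. With each member divided by its SD over the 8 libraries r was -0.40. The sign of r thus depends on the libraries used and on the weight of the members, and the pooled value describes 1 library against 7. Leaving out Nfil3 changed it as well. With Arntl and Npas2 alone, a choice made after seeing the data, r was -0.68 over 8 libraries and rho -0.29, and without wild type 4 they were 0.41 and 0.071. Over the 6 libraries without wild type 1 and wild type 4 they were -0.46 and -0.49.

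**Figure D3:**
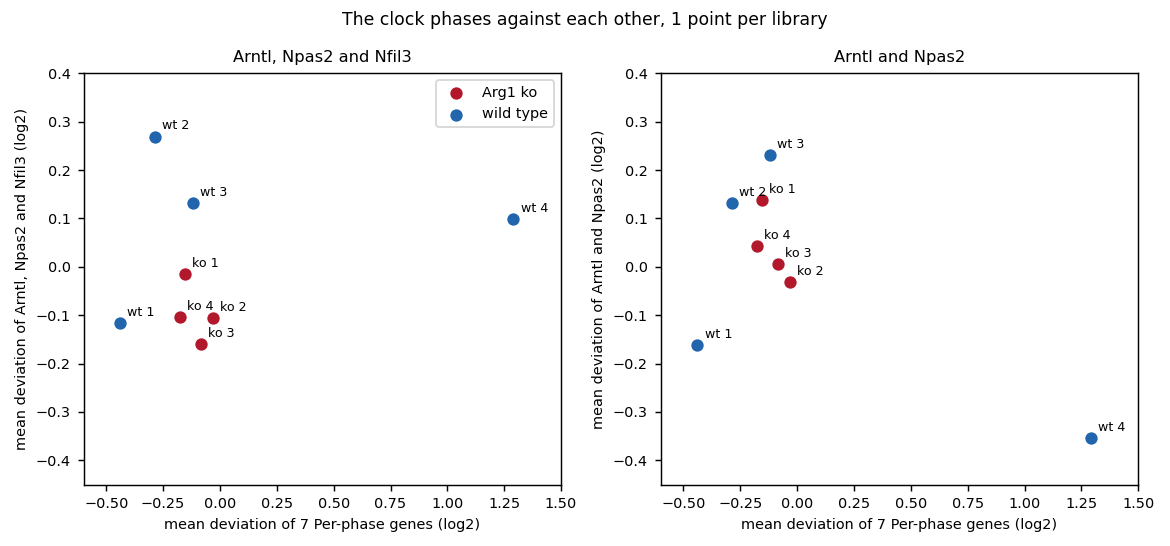
Mean deviation of the 7 Per-phase genes (horizontal, log2) against that of the Bmal1-phase genes (vertical, log2), 1 point per library, with all 3 Bmal1-phase genes on the left and without Nfil3 on the right. Wild type 4 lies at 1.29 on the horizontal axis, and only without Nfil3 does it lie lowest on the vertical axis, at -0.35.

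Gene by gene, all 14 pairs of a Per-phase gene with Arntl or Npas2 had a negative r over 8 libraries, from -0.92 for Dbp with Npas2 to -0.13 for Per2 with Arntl. Without wild type 4 only 5 of the 14 were negative. Dbp kept its inverse relation to the activators among the 7 remaining libraries, with r = -0.81 against Npas2 and -0.68 against Arntl (rho -0.71 and -0.75). Ciart was also inverse to Npas2 there, with r = -0.59, while the Period genes ran with Npas2, with r = 0.81 for Per1, 0.56 for Per2 and 0.62 for Per3. Arntl and Npas2 went together with and without wild type 4, at r = 0.80 over 8 libraries and 0.73 over 7.

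Within the Per phase all 21 pairs were positive over 8 libraries, with a median r of 0.88. Among the 7 libraries without wild type 4, 13 pairs were positive and the median was 0.32. The phase fell into blocks there. Per1, Per2 and Per3 kept r of 0.80 to 0.94 with each other, and Dbp and Ciart kept 0.63. Between the blocks r was negative, from -0.46 for Per1 with Ciart to -0.14 for Per3 with Dbp. Nr1d1 and Nr1d2 kept r = 0.67 with each other and were inverse to Nfil3, at -0.88 and -0.81, although Nfil3 ran with every Per-phase gene over 8 libraries (0.35 to 0.77). These values are over few libraries of small range and are given as descriptions.

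**Figure D4:**
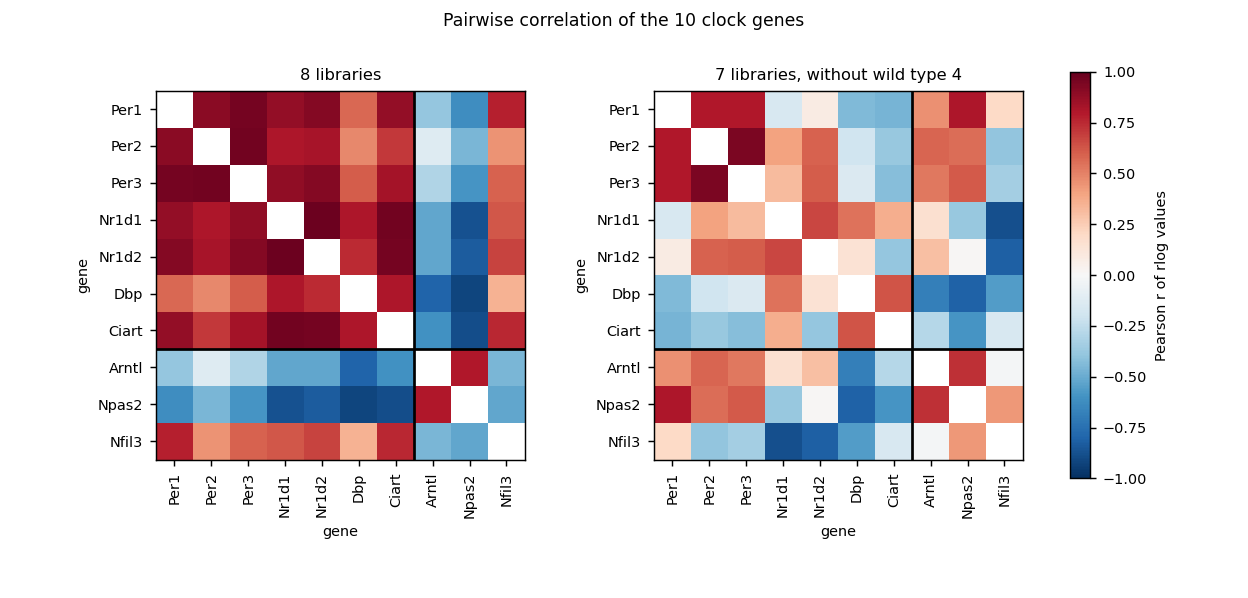
Pearson r of rlog values between each pair of the 10 clock genes, over 8 libraries on the left and over 7 libraries without wild type 4 on the right; black lines part the Per phase from the Bmal1 phase. The even red block of the Per phase on the left, median 0.88, breaks on the right into the Period genes and the pair of Dbp and Ciart.

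Another 21 clock genes that are not members were examined in the same way, and 20 of them passed the filter. Rorb, at 1.98 to 2.32 in all libraries, did not. Of the 20, 13 were highest and 3 lowest in wild type 4, beside 24.7% and 24.3% of all genes. Known to peak near Dbp are Tef, Hlf, Usp2 and Bhlhe41, and all 4 were highest in wild type 4. Their r with the Per-phase mean was 0.98, 0.93, 0.89 and 0.60 over 8 libraries, where 95% of all tested genes had an r below 0.86. Without wild type 4 the r of Hlf was 0.92 and that of Tef 0.72, but those of Usp2 and Bhlhe41 were -0.018 and -0.35. In that setting 95% of all tested genes had an r below 0.89, a value that Hlf passed and Tef did not. Clock and Cry1, known to peak near Arntl, had an r with the mean of Arntl and Npas2 of 0.31 and 0.041 over 8 libraries, and of 0.57 and 0.76 without wild type 4. With the Per-phase mean the r of Clock and Cry1 was 0.25 and 0.64 over 8 libraries, and 0.79 and 0.76 without wild type 4. Without wild type 4 they therefore did not run with Arntl and Npas2 more than with the Per phase.

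By role, the D-box activator Tef had 10.44, 10.57, 10.52 and 10.44 in Arg1 ko, against 10.15, 10.54, 10.35 and 11.84 in wild type. The repressor Cry2, partner of the Period proteins, had 9.68, 9.83, 9.65 and 9.56 in Arg1 ko, against 9.35, 10.14, 9.82 and 11.45 in wild type, and it ranked 13 of all genes in wild type 4. Its relative Cry1 was flat, from 8.95 to 9.10 in Arg1 ko and from 8.80 to 9.19 in wild type. The E-box repressors Bhlhe40 and Bhlhe41 stood at 12.50 and 6.08 in wild type 4, above the ranges of 11.71 to 11.83 and 5.59 to 5.95 in the other 7 libraries. Of the casein kinases that phosphorylate Per proteins, Csnk1e deviated by 0.72 in wild type 4 and Csnk1d by 0.19. Of the ubiquitin ligase subunits, Fbxl21, which binds Cry proteins, deviated by 0.016 and Btrc, which binds Per proteins, by -0.098.

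**Figure D5:**
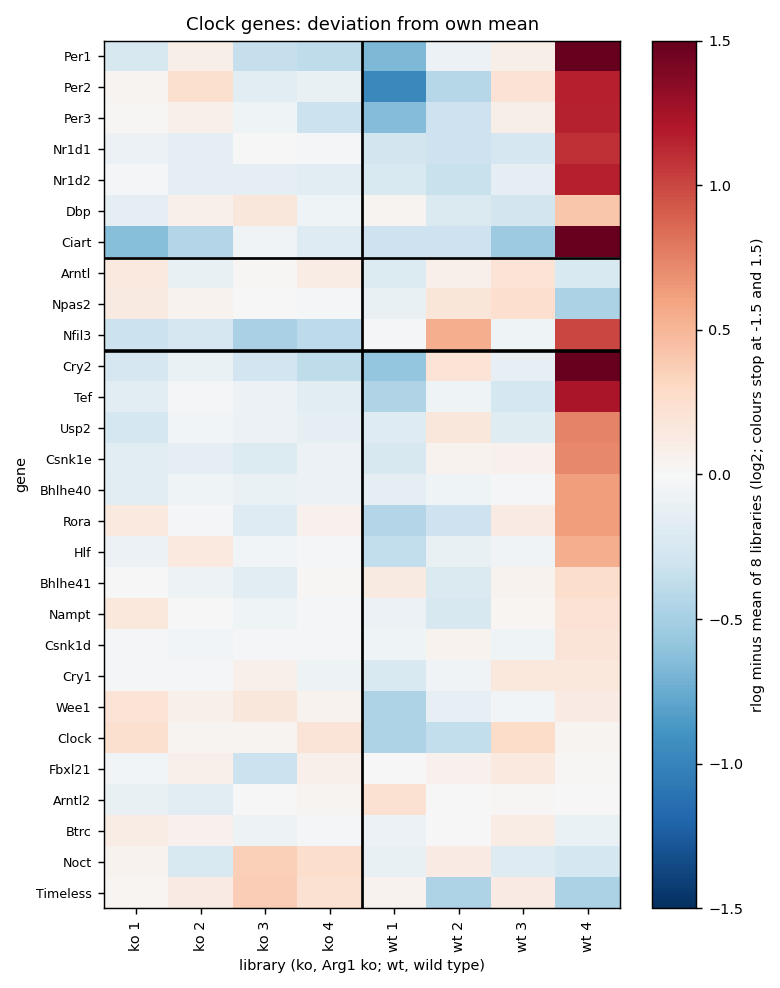
Deviation of each clock gene from its mean over 8 libraries (rows; log2 units, red above and blue below the mean), with Arg1 ko libraries left of wild type; members stand above the thick line, in Per phase then Bmal1 phase, and 18 other clock genes below it, ordered by wild type 4. The wild type 4 column is red for Cry2 (1.52) and Tef (1.23) below the line as it is for the Per phase above it.

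Clock itself followed another order. It had 10.96, 10.75, 10.75 and 10.90 in Arg1 ko, against 10.24, 10.34, 10.98 and 10.76 in wild type, so wild type 1 and wild type 2 were lowest and wild type 4 lay among the Arg1 ko values. Wee1, a mitotic inhibitor under clock control, was likewise lowest in wild type 1, at 8.53, and 9.05 to 9.19 in Arg1 ko. Noct, a rhythmic phosphatase, and Nampt, the enzyme of NAD salvage, deviated in wild type 4 by -0.26 and 0.21. Rora, an activator that competes with the Rev-erb proteins, deviated there by 0.63. Arntl2, a paralog of Arntl, ranged from 5.32 to 5.54 in Arg1 ko and from 5.50 to 5.73 in wild type.

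Between genotypes 0 of these 20 genes passed limma over all genes (0% called), and Arg1 ko was higher in 7 and lower in 13, at a median difference of -0.085. At an unadjusted p under 0.05 by limma there were 2 of the 20, among them Timeless, beside 1490 of all 16380 tested genes. Timeless, a replication fork protein named for its fly relative, had 7.33, 7.42, 7.66 and 7.53 in Arg1 ko, against 7.35, 6.83, 7.42 and 6.82 in wild type, which differ by 0.38 (SE 0.17).

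Per1 is also a known target of glucocorticoid hormones, so 13 glucocorticoid-induced genes were measured beside the clock. Of these 11 were highest in wild type 4, and their mean deviation there was 0.85. Wild type 2 came next at 0.34, while the Arg1 ko libraries stood at -0.28 to -0.13 and the other 2 wild-type libraries at -0.30 and -0.094. Fkbp5, a co-chaperone of the glucocorticoid receptor, had 13.83 to 14.00 in Arg1 ko, against 13.78, 14.50, 13.88 and 14.64 in wild type 1 to 4. Sgk1, a kinase of ion transport, had 13.43 to 13.62 in Arg1 ko, against 13.38, 14.25, 13.53 and 14.85 in wild type. In wild type 2, where the Per-phase mean was -0.29, 10 of the 13 lay above their own mean and 3 below it. Klf9, a transcription factor named here after its values were seen, lay below, at -0.29. Its r with the Per-phase mean was 0.93 over 8 libraries and 0.85 without wild type 4. Cdkn1a, a cell cycle inhibitor, and the metallothionein Mt1 deviated in wild type 4 by 0.96 and 0.89. Without wild type 4 the r of Fkbp5, Sgk1, Cdkn1a and Mt1 with the Per-phase mean was -0.11, -0.20, -0.62 and -0.75. Hif3a, Zbtb16 and Errfi1 were positive there like Klf9, at 0.84, 0.75 and 0.42, and every other gene of the list was negative. Both signs thus occurred in the list, and Klf9 does not stand for all of it. Between genotypes 12 of the 13 were lower in Arg1 ko, with a median of -0.41, and 0 passed limma (0% called). The part of these genes in the level of the clock genes was not tested.

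Cell type markers in wild type 4 were mixed. The mean deviation there was 0.0043 for 8 epithelial, -0.22 for 4 fibroblast, 0.31 for 3 smooth muscle, 0.25 for 3 endothelial and -0.13 for 6 leukocyte markers. Markers within a list went opposite ways there, with Col1a1 at -0.75 and Dcn at 0.31 among the fibroblast markers and Cd3e of T cells at -0.76 and Ly6g of neutrophils at 1.08 among the leukocyte markers. The epithelial markers were split as well, with Cdx2 at -0.77 and Krt18 at 0.36. The mean was 0.066 for 5 markers of nerve cells and glia and 0.37 for 2 of red blood cells. The mean level of the smooth muscle markers ranged from 13.96 to 14.18 in Arg1 ko and from 13.66 to 14.32 in wild type, with wild type 4 highest. The fibroblast markers ranged from 12.25 to 12.32 in Arg1 ko and from 11.77 to 12.23 in wild type. The leukocyte markers ranged from 7.57 to 7.76 in Arg1 ko and from 7.63 to 8.05 in wild type. In bulk tissue fewer cells of a type and less RNA per cell cannot be told apart, and the part of cell makeup in the clock values was not tested.

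Finally, all tested genes were ranked by the likeness of their pattern to the Per-phase mean, as Pearson r over the 8 libraries. An r of at least 0.9 was reached by 3.04% of the genes other than the members and an r of -0.9 or lower by 2.30%. The 6 most alike were Haus2, Rev1, Ctdp1, Kat7, Epc2 and Ndel1, all at r of 0.99. Rev1 is a DNA polymerase of translesion synthesis, Kat7 a histone acetyltransferase, and Ctdp1 a phosphatase of RNA polymerase II. Their deviations in wild type 4 ranged from 0.47 in Ndel1 to 1.14 in Epc2, and without wild type 4 their r was 0.87 to 0.97. The 6 most opposite were Iqcc, Klhl8, A4galt, Mgll, Gtpbp8 and Irf3, with r of -0.99 to -0.98. A4galt, a glycosphingolipid synthase, had 8.23 to 8.31 in Arg1 ko, against 8.60, 8.56, 8.27 and 7.10 in wild type 1 to 4. Mgll, the lipase of monoacylglycerols, and Irf3, a transcription factor of the interferon response, deviated in wild type 4 by -0.39 and -0.78.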

How the data were processed

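RNA of 8 mouse colon libraries was sequenced from 1000 ng of total RNA each with a stranded mRNA kit, per the labels' protocols. The submitters' processing notes name DESeq2 1.16.1, featureCounts, Subread 1.5.3, STAR 2.5.2b, BWA 0.7.14-r1136 and the build GRCm38. The sources used here give no order, options, annotation or strand setting. The authors deposited regularised log2 values per gene and library, a scale (named Rlog by them) on which low counts are drawn toward the gene mean, so depth is unknown and counting error cannot be given. Every column was matched to a sample by its label.

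Symbols and coordinates are from GENCODE vM21 (GRCm38), and promoters from RefSeq (GRCm38.p6). The fit covered every non-constant gene whose mean reached 3 and used limma 3.58.1 with R 4.3.3 (empirical Bayes with a mean trend, no covariate, two-sided, Benjamini-Hochberg adjustment over all genes at 0.05), after a test on simulated data. Deviations, ranks and correlations were computed with pandas 2.3.3, NumPy 2.4.6 and SciPy 1.17.1. Replicates are numbered in order of deposit. The labels do not say that each library is a separate mouse, so a p-value covers only the spread among these libraries, which may be technical.

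The members and lists were chosen with earlier results of these data known. Genes named are all members, the other clock genes (some are counted but not reported here by name), Arg1, up to 4 members of highest mean of the glucocorticoid and immediate early lists, and the 6 genes of highest and of lowest r with the Per-phase mean, predicted genes, pseudogenes and antigen receptor segments left out. Klf9, Hif3a, Zbtb16, Errfi1, Btg2, Fos and the genes that stood highest in wild type 4 were named after their values were seen. Cell type markers are named as examples from their lists. Alternatives were other filters, scalings, moderations and thresholds, leaving out each library, and other ways to average the phases.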

Additional observations from a re-analysis of the deposited data

Results flagged for a closer look

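Of 68 sets of 4 libraries examined (34 genes and means in each genotype), 7 held a library whose gap to its nearest neighbour exceeded 0.829 of the range of its genotype, Dixon's value for 4 samples, which chance alone passes in about 1 set in 20. The sets share libraries and are not independent, and the members were chosen with their levels in these libraries in view. The count of 7 can therefore not be judged against that rate. Wild type 4 was the separate library in 4 of them, with Nr1d1 at 11.83, Nr1d2 at 12.24, Ciart at 8.88 and Bhlhe40 at 12.50. In Arg1 ko 1 Nr1d2 stood apart at 11.06, a step of 0.84 of a range that is narrow. Wild type 1 stood apart in Arntl2, at 5.73. The library labelled wild type 3 stood apart in Arg1, at 5.02.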

How the results depend on the processing

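No gene passed limma at an adjusted p of 0.05 with 8 libraries, and 0 passed with no filter, with a mean of at least 5, with aligned medians, with quantile normalisation, with robust moderation, with a single prior variance or at an adjusted p of 0.1; leaving out 1 library at a time gave 0 to 1005, the highest without the library labelled wild type 3, where Arg1 also passed (-0.51, limma adjusted p 0.0418). The r between the phases, 0.22, was 0.28 with aligned medians, 0.13 after quantile normalisation and 0.094 with members centred within genotype. It was -0.40 when each member was divided by its SD and -0.68 with Arntl and Npas2 alone, and leaving out 1 library at a time gave -0.17 to 0.55. A change was counted where it exceeded the jackknife error over libraries; the cause was not tested. The median r of Tef, Hlf, Usp2 and Bhlhe41 with the Per-phase mean, 0.91, ranged from 0.35 (without wild type 4) to 0.96. Of the genotype differences of other clock genes, Rora (0.0027) turned to -0.027 with aligned medians and -0.013 after quantile normalisation. With 1 library left out Rora ranged from -0.14 to 0.21, Cry1 from -0.10 to 0.030, Tef from -0.41 to 0.15, Hlf from -0.13 to 0.18 and Nampt from -0.030 to 0.12. Per2 (0.0074) and Dbp (0.020) were -0.022 and -0.0099 with aligned medians. No paired analysis was possible because the labels give the genotypes no shared replicate numbers. The rlog scale lowers differences of weakly expressed genes such as Ciart.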

Other observations

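Beside the clock genes, the genes that stood highest above their own mean in wild type 4 were named after their values were seen, predicted genes left out. Depp1, a target of FOXO transcription factors, deviated by 2.30 there and ranked next after Ciart, and Wfikkn1, which encodes a protein with protease inhibitor domains, deviated by 2.05. Gdf15, a stress-induced cytokine, deviated by 1.91, the small Maf protein gene Maff by 1.64 and Sesn1, a sestrin of stress and nutrient signalling, by 1.62. In Depp1 and Wfikkn1, as in Ciart, none of the other 7 libraries lay above the mean of all 8. Wild type 4 itself raises that mean.

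The immediate early genes, which respond within minutes to stimulation, did not share the clock pattern as a list. Of 15, 7 were highest and 2 lowest in wild type 4, and their mean deviation was 0.27 there and 0.28 in the library labelled wild type 3, where the Per-phase mean was -0.12. Klf6 deviated in wild type 4 by 1.27, Zfp36, which promotes decay of cytokine messages, by 1.05, Klf4 by 0.37 and Jun by 0.35. The 2 that were lowest in wild type 4, Btg2 and Fos, deviated there by -0.88 and -0.81. Between genotypes 12 of 15 were lower in Arg1 ko and 5 lay entirely below wild type, beside 1.67% of all genes, and 0 passed limma over all genes (0% called).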
